A study of Mus musculus with 8 samples.

Results

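The nuclear-encoded subunits of oxidative phosphorylation were followed as a group through the hippocampus of wild-type mice and of carriers of a Camk2a-Cre transgene. The group was taken from the count table by gene symbol. It holds the Ndufa, Ndufb, Ndufc, Ndufs and Ndufv genes (assembly factors of the Ndufaf series left out), Sdha to Sdhd, and all symbols that begin with Uqcr, Cox4i, Cox5, Cox6, Cox7, Cox8 or Atp5, without those marked as pseudogenes. Of 46078 rows in the table, 86 had such a symbol, and 79 of these had a mean of at least 1 CPM (counts scaled to the size of the library) over the 8 libraries. These 79 genes were kept. All of them were among the 15996 genes that passed the filter on low counts.

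The libraries were made from poly(A) RNA of the hippocampus of 9-week-old C57BL/6J mice. Wild-type mice (WT, 4 libraries) were compared with mice labelled Tg(Camk2a-cre)T29-1Stl Cre+/-, which are hemizygous for a transgene that expresses Cre recombinase from the Camk2a promoter, active in forebrain excitatory neurons (T29-1 Cre, 4 libraries). The title of the study states that Syt2, a calcium sensor of synaptic vesicle fusion, is overexpressed out of place in a Cre line. Nothing in the labels states whether replicates are separate animals, and a p-value here therefore reflects only how far these samples scatter, which may be technical.

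Oxidative phosphorylation is carried out in the inner mitochondrial membrane by 5 protein complexes. Complexes I (NADH dehydrogenase) and II (succinate dehydrogenase) pass electrons to ubiquinone, complex III passes them on to cytochrome c, and complex IV (cytochrome c oxidase) passes them to oxygen. Complexes I, III and IV pump protons, and complex V (ATP synthase) uses the proton gradient to make ATP. Most subunits are encoded in the nucleus and a small set in mitochondrial DNA, and several subunits of complexes IV and V have more than 1 nuclear gene, some of which are used mainly in heart and skeletal muscle, lung or testis. In the brain the pathway supplies most of the ATP that neurons use to keep up ion gradients and synaptic transmission.

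The 79 genes comprised 36 of complex I, 4 of complex II, 8 of complex III, 14 of complex IV and 17 of complex V. Ndufa4 and its paralog Ndufa4l2 were counted in complex IV, where the Ndufa4 protein is known to reside. Atp5s and Atp5sl bear ATP synthase symbols but encode no structural subunit, and they were kept under the symbol rule. The 7 rows below the threshold were Cox6b2 (mean of 0.925 CPM), Cox4i2 (0.800 CPM), Cox7a1 (0.554 CPM), Cox7b2 (0.145 CPM), Cox8b (0.0696 CPM), Cox8c (0 counts) and a second row named Uqcrc1 (0 counts). Just above it were Ndufa4l2 (mean of 1.73 CPM) and Cox6a2 (2.24 CPM), and the next gene, Atp5s, had 11.2 CPM. Per library, the counts of the 79 genes ran from 36 to 31566.

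Promoter sequences were looked up because transcription factors NRF1, GABPA (an ETS factor) and YY1 are known regulators of many genes of this pathway, and because the genes moved together between libraries, as described further on. RefSeq promoters of mouse build GRCm38.p6, each of 300 bases around a transcription start site, matched 66 of the 79 genes. They were searched on both strands for GCGCANGCG (a core of the NRF1 site), CCGGAAG (ETS), AAGATGGCG (YY1) and GGGGCGGGG (GC box, the site of SP1). An ETS match that ends in AAG can share those letters with a YY1 match, and matches to the NRF1 core, which reads nearly alike on both strands, can overlap each other. The following 5 promoters, 1 for each complex, are shown because each holds at least 1 NRF1 match. They are written 5′ to 3′ on the strand of the gene, with the matches in capitals.
Ndufs6, chr13:73328433-73328732, minus strand (NRF1 and YY1): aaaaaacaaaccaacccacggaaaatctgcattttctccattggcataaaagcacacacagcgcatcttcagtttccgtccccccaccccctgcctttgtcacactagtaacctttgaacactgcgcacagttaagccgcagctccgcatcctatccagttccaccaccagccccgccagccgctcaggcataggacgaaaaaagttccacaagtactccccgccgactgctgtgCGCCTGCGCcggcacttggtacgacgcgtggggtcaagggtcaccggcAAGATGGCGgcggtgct
Sdha, chr13:74350191-74350490, minus strand (NRF1): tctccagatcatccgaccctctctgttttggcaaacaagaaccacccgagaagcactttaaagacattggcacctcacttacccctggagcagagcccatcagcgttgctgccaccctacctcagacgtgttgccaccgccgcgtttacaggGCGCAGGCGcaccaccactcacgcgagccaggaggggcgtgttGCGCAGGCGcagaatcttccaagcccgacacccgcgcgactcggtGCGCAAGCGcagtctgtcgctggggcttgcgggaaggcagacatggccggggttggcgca
Uqcrc1, chr9:108936398-108936697, plus strand (NRF1): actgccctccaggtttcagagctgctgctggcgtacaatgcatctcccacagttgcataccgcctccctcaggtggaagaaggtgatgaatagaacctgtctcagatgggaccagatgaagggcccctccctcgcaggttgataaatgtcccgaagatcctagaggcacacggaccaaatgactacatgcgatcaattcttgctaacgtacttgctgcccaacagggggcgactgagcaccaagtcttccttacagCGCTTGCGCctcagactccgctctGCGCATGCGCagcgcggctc
Cox6a1, chr5:115348909-115349208, minus strand (NRF1 and ETS): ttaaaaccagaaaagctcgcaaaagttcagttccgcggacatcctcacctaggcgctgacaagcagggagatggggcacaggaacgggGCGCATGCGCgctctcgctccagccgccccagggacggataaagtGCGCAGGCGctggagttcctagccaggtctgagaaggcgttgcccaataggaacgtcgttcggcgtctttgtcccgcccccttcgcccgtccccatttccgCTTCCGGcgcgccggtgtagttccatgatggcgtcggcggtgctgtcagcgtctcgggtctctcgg
Atp5k, chr5:108434350-108434649, minus strand (NRF1 and ETS): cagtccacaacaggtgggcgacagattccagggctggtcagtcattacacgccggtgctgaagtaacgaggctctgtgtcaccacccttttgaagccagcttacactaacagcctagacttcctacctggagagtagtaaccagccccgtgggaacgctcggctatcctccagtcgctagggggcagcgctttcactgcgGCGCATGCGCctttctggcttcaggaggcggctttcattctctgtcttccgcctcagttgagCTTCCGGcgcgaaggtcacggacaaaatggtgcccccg

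An NRF1 match was present in a promoter of 20 of the 66 genes (30.3%), against 9.63% of 17492 coding genes and 6.25% of all promoters in the table. The ETS letters were found for 16 genes (24.2%), against 12.9% of coding genes and 8.86% of all promoters. YY1 letters were found for 8 genes (12.1%), against 2.14% of coding genes and 1.4% of all promoters. In each of these genes but Atp5j, a YY1 match began at base 23 to 36 downstream of a start site, as the window reaches past that site. The GC box did not stand apart in the same way, with 11 genes (16.7%) against 17.3% of coding genes and 11.4% of all promoters. By complex, NRF1 matches fell in 8 of 32 genes of complex I, 2 of 3 of complex II, 2 of 5 of complex III, 1 of 10 of complex IV and 7 of 16 of complex V. All 8 genes with a YY1 match belonged to complex I (5 genes, among them Ndufs4, Ndufs6 and Ndufs7) or complex V (3 genes). The median GC content of the promoters was 58.5% for these genes and 56.3% for all coding genes. These matches describe the letters in a window and show neither binding nor control.

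The total count per library ran from 23358289 to 30882631. Library WT 4 stood apart from the rest on the first principal component of all genes, with a score of -33.4 against -0.69 to 8.74 in the other 7 libraries, and fold changes between genotypes are therefore also given without it. The study's named gene, Syt2, had 31.8 ± 2.96 CPM in the WT libraries and 35.2 ± 5.36 CPM in the T29-1 Cre ones (mean ± SD of 4 each), with a log2 fold difference of 0.14 (0.12 without WT 4) and an adjusted p of 0.998 by edgeR's quasi-likelihood test with Benjamini-Hochberg adjustment. All 12 markers of hippocampal principal neurons were detected, with a summed level of 7399 to 7734 CPM in the WT libraries and 7040.5 to 7662 CPM in the T29-1 Cre ones. Markers of other cell types were also present. Choroid plexus markers summed to 22.3 to 27.5 CPM in WT and 25.2 to 53.1 CPM in the T29-1 Cre libraries, oligodendrocyte markers to 3574 to 4294 and 3499 to 3836 CPM, ependymal markers to 26.9 to 42.7 and 27.4 to 34.5 CPM, and blood cell markers to 34.5 to 62.0 and 29.9 to 47.6 CPM. Kl alone gave most of the choroid plexus sum in WT (mean of 20.7 CPM, and 21.8 in T29-1 Cre). Only 3 of those 8 markers passed the filter on low counts. Ttr averaged 2.08 CPM (SD 1.54) in WT against 11.3 (SD 11.1) in T29-1 Cre, and the genotypes overlapped. Its log2 fold change was 2.39 (unadjusted p = 0.00212, adjusted p = 0.998 by edgeR), or 2.25 without WT 4. Tppp3 was the largest part of the ependymal sum (mean of 16.9 CPM). The part of these cell types in the values of the subunits was not tested. Of the 166 tested genes of all marker and pathway lists, edgeR called 0 and found 5 at an unadjusted p under 0.05 (DESeq2 called 0 and found 6, limma-voom 0 and 5), where over all 15996 genes they found 388, 266 and 385.

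Before the genotypes were compared, the levels of the subunits themselves were set out, as CPM per kilobase of a representative transcript so that genes can be compared with each other. Complex IV had the highest median level, 142 CPM per kb, followed by complex V with 112, complex III with 94.1, complex II with 63.0 and complex I with 62.6. The highest single genes were Atp5b, the catalytic beta subunit of ATP synthase, with 552 ± 20.6 CPM per kb, and Cox4i1, the common form of cytochrome c oxidase subunit 4, with 499 ± 52.6 (SD, n = 8). Both exceeded the highest genes of the other complexes, which were Ndufb9 of complex I (142 ± 11.3), Sdha of complex II (139 ± 3.14) and Uqcrc1 of complex III (137 ± 8.01). The last 3 differed by less than the SD of Ndufb9.

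Within complex I the level ran from 142 CPM per kb for Ndufb9 to 15.4 ± 0.840 for Ndufab1, the acyl carrier protein, whose representative transcript is the longest of the group. In complex II the catalytic flavoprotein Sdha was the highest gene and the membrane anchor Sdhc the lowest, with 22.1 ± 1.5 CPM per kb. In complex V the F1 head subunits Atp5b and Atp5a1 (321 ± 8.53 CPM per kb) led, and the symbol-only members Atp5sl (13.9 ± 0.584) and Atp5s (7.51 ± 0.676) were lowest. A level per kb depends on the transcript taken as the measure of length, and that is uncertain where the annotation gives principal transcripts of very different length, as for Atp5g1 (596 or 4715 bp), Ndufb2 (455 or 4371 bp) and Ndufc1 (315 or 1249 bp). With the longer transcript Ndufb2 had 3.58 CPM per kb in place of 34.4 and was the lowest gene of complex I.

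**Figure D1:**
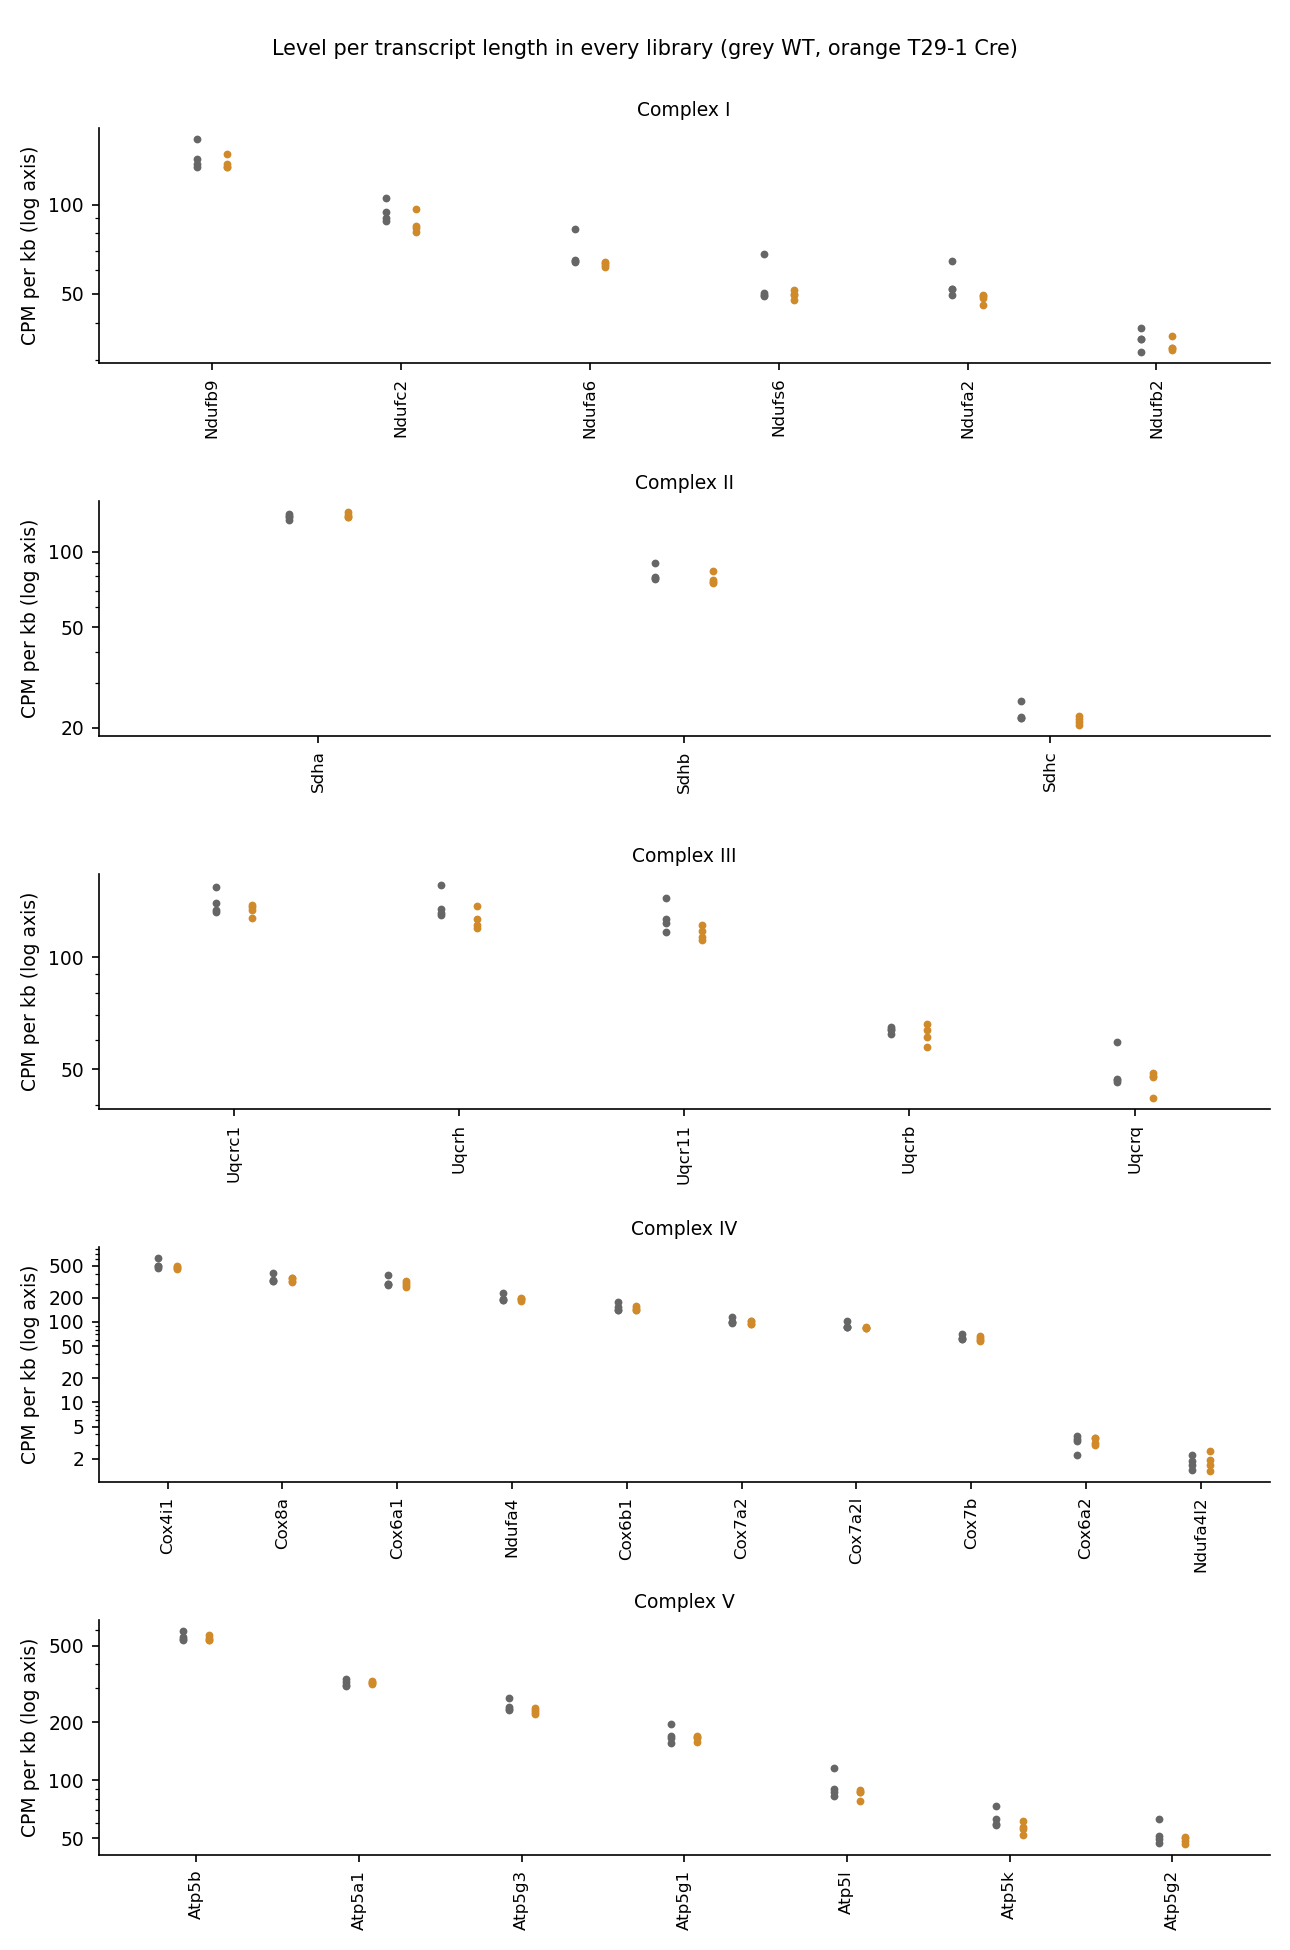
Level in CPM per kb of transcript (log axis) of the genes of each complex chosen by the rule for named genes, in each of the 8 libraries, with genes ordered by mean level within their complex, WT in grey and T29-1 Cre in orange. Levels span from 1.85 (Ndufa4l2) to 552 (Atp5b) CPM per kb, and in most genes a single grey point, library WT 4, lies above the others.

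The comparison of genotypes asked whether the subunits differ in a hippocampus that carries the T29-1 transgene. None of the 79 genes was called. At an adjusted p under 0.05, edgeR's quasi-likelihood test called 0 of 79, where it called 0.00625% of all genes tested (1 gene). At an unadjusted p under 0.05 it found 2 of 79, against a background of 2.43% of all genes, and both were lower (background 1.16%). DESeq2 and limma-voom each called 0 of 79 and found 0 at an unadjusted p under 0.05. The smallest adjusted p among the 79 was 0.998. In bulk tissue, fewer cells of a type and less RNA per cell cannot be told apart, and this holds for each value that follows.

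Although no gene passed the test, the estimates lay mostly on one side. In 72 of 79 genes the estimate was lower in T29-1 Cre, against a background of 50.3% of all genes. The median log2 fold change was -0.06, against -0.00 over all genes tested, and the range was from -0.17 (Ndufa2) to 0.13 (Atp5s). Every complex shared the sign. The median was -0.06 for complex I (35 of 36 lower), -0.04 for complex II (3 of 4), -0.07 for complex III (8 of 8), -0.06 for complex IV (12 of 14) and -0.05 for complex V (14 of 17). The genes with a higher estimate were Ndufa9, Sdha, Cox6a2, Ndufa4l2, Atp5a1, Atp5e and Atp5s.

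This one-sidedness was not present without WT 4. Fitted on the other 7 libraries, 38 of 79 genes had a lower estimate in T29-1 Cre, against 51.2% of all genes, and the median log2 fold change was 0.00. In 34 genes the estimate moved from lower to higher and in 0 from higher to lower. By complex the medians became 0.00 for complex I (17 of 36 lower), -0.00 for complex II (2 of 4), -0.02 for complex III (6 of 8), 0.00 for complex IV (7 of 14) and 0.01 for complex V (6 of 17). Estimates ran from -0.09 (Atp5k) to 0.17 (Ndufa4l2), with 0 of 79 called by edgeR (background 0.0062%) and 0 of 79 at an unadjusted p under 0.05 (background 2.87%).

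**Figure D2:**
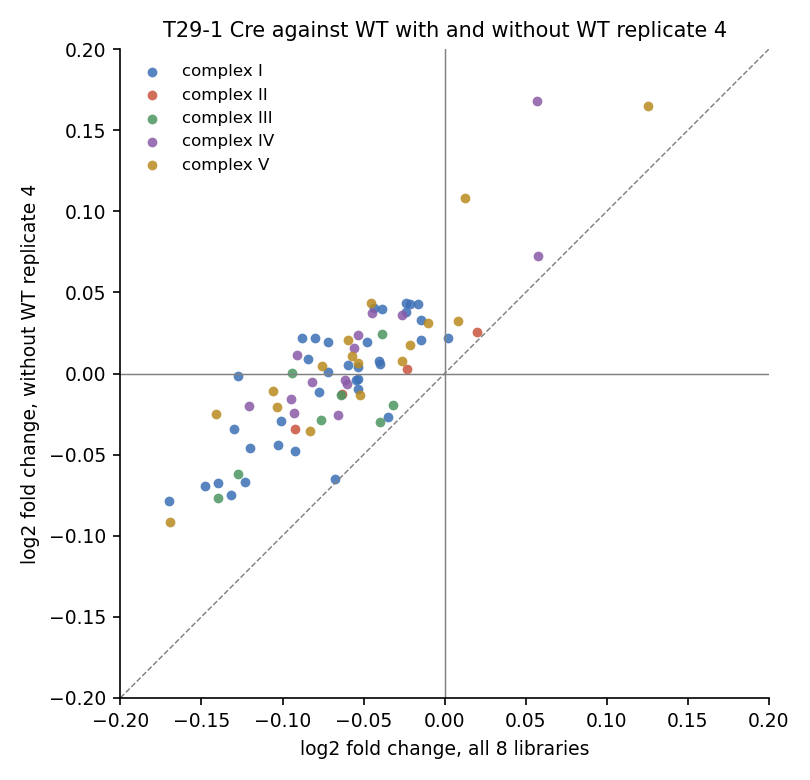
Log2 fold change of T29-1 Cre against WT for each of the 79 genes with all 8 libraries (x axis) and without WT replicate 4 (y axis), coloured by complex, with the dashed line marking equal values. Most points lie left of 0 on the x axis (72 genes) and are spread around 0 on the y axis (38 genes below it).

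In complex I, the 2 genes with the smallest unadjusted p were Ndufa2 and Ndufc2, both accessory subunits. Ndufa2 had 29.7, 29.6, 28.4 and 37.0 CPM in WT 1 to 4 and 27.8, 26.3, 28.1 and 28.5 CPM in T29-1 Cre 1 to 4. The highest of the 8 values was that of WT 4, and the lowest remaining WT value lay just under the highest T29-1 Cre value. Its log2 fold change was -0.17 (SE 0.08, unadjusted p = 0.0462, adjusted p = 0.998 by edgeR's quasi-likelihood test), and -0.08 without WT 4 (unadjusted p = 0.146). Ndufc2 had 61.4, 64.6, 60.4 and 72.1 CPM in the WT libraries and 66.0, 57.8, 55.1 and 56.8 CPM in the T29-1 Cre ones. Here T29-1 Cre 1 lay above 3 of the 4 WT libraries, and the log2 fold change was -0.13 (SE 0.07, unadjusted p = 0.0781 by edgeR), or -0.07 without WT 4.

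Ndufa6, an accessory subunit at chr15:82350140-82354322 (GRCm38), was the 1 gene of 79 whose genotypes did not overlap, against a background of 1.81% of all genes. It had 37.9, 38.3, 38.0 and 48.7 CPM in the WT libraries and 37.7, 37.5, 36.4 and 37.0 CPM in the T29-1 Cre ones. Apart from WT 4 the groups were separated by a narrow gap, and the log2 fold change was -0.13 (SE 0.08) with all libraries and -0.03 without WT 4, where it again was the 1 gene of 79 that did not overlap (background 3.94%). The most abundant complex I transcript per length, that of the accessory subunit Ndufb9, had 101, 96.7, 94.6 and 117 CPM in the WT libraries and 104, 96.5, 94.3 and 93.9 CPM in the T29-1 Cre ones. Its groups overlapped, and the log2 fold change was -0.07 with all libraries and 0.00 without WT 4.

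In complex II, the only complex with no subunit encoded in mitochondrial DNA, the catalytic Sdha had a higher estimate in T29-1 Cre and the other 3 genes a lower one. Without WT 4 this division was not present, with log2 fold changes of 0.03 for Sdha, 0.003 for Sdhd, -0.01 for Sdhb and -0.03 for Sdhc. Sdha had 408, 386, 399 and 403 CPM in the WT libraries and 407, 398, 397 and 417 CPM in the T29-1 Cre ones. WT 4 lay inside the range of the other libraries, and the log2 fold change was 0.02 (SE 0.04). Sdhc, a membrane anchor, had 69.1, 69.6, 69.4 and 80.7 CPM in the WT libraries and 70.6, 64.8, 68.9 and 66.5 CPM in the T29-1 Cre ones. Its first 3 WT values were almost equal and WT 4 was above them, and the log2 fold change was -0.09 (SE 0.06, unadjusted p = 0.140 by edgeR). Sdhb, the iron-sulfur subunit, had 89.1, 89.4, 90.4 and 102 CPM in the WT libraries and 95.3, 85.7, 87.7 and 86.6 CPM in the T29-1 Cre ones, the same picture with T29-1 Cre 1 as the next highest library.

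In complex III, the smallest unadjusted p belonged to Uqcr11 (chr10:80402997-80406830) and Uqcrh, the hinge protein near cytochrome c1. Uqcr11, a small membrane subunit, had 55.1, 56.5, 52.2 and 64.3 CPM in the WT libraries and 54.4, 49.6, 50.5 and 52.3 CPM in the T29-1 Cre ones. WT 4 was again highest and the other values intermixed. The log2 fold change was -0.14 (SE 0.06, unadjusted p = 0.0462, adjusted p = 0.998 by edgeR's quasi-likelihood test), and -0.08 without WT 4 (unadjusted p = 0.121). Uqcrh had 73.9, 72.2, 71.2 and 85.8 CPM in the WT libraries and 75.1, 69.3, 67.0 and 65.8 CPM in the T29-1 Cre ones, with a log2 fold change of -0.13 (SE 0.07), or -0.06 without WT 4. The core protein Uqcrc1 had 231, 222, 219 and 256 CPM in the WT libraries and 229, 222, 211 and 226 CPM in the T29-1 Cre ones, and its groups overlapped (log2 fold change -0.06, or -0.01 without WT 4).

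In complex IV, the genes with the smallest unadjusted p were Cox4i1 (chr8:120668222-120674207) and Cox7a2l, which is known as a supercomplex assembly factor. Cox4i1 had 365, 368, 352 and 465 CPM in the WT libraries and 374, 339.9, 351 and 361 CPM in the T29-1 Cre ones. The level in WT 4 exceeded the other 7 libraries, which overlapped, and the log2 fold change was -0.12 (SE 0.08, unadjusted p = 0.136 by edgeR), or -0.02 without WT 4. Cox7a2l had 94.2, 92.6, 92.4 and 111 CPM in the WT libraries and 91.5, 91.1, 90.6 and 92.6 CPM in the T29-1 Cre ones. Those values were close to each other in 7 libraries, and the log2 fold change of -0.09 (SE 0.06) became -0.02 without WT 4.

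In complex V, the membrane subunits Atp5k and Atp5l had the smallest unadjusted p. Atp5k (subunit e, chr5:108433244-108434448) had 23.3, 22.1, 21.8 and 27.5 CPM in the WT libraries and 22.8, 19.3, 20.8 and 21.3 CPM in the T29-1 Cre ones. T29-1 Cre 1 lay among the WT values and the other 3 below them, and the log2 fold change was -0.17 (SE 0.08, unadjusted p = 0.0542 by edgeR). Atp5k kept the lowest estimate of the group without WT 4, -0.09 (SE 0.06, unadjusted p = 0.177). Atp5l (subunit g) had 47.3, 49.2, 45.1 and 63.1 CPM in the WT libraries and 47.1, 42.7, 48.3 and 47.1 CPM in the T29-1 Cre ones, so that its log2 fold change was -0.14 with WT 4 and -0.02 without it. The catalytic beta subunit Atp5b had 1059, 1039.5, 1030.3 and 1141 CPM in the WT libraries and 1085, 1030.1, 1021 and 1056 CPM in the T29-1 Cre ones, with a log2 fold change of -0.03 (SE 0.05), or 0.01 without WT 4. Its alpha partner Atp5a1 had 799, 763, 772 and 829 CPM in the WT libraries and 799, 790.4, 782 and 809 CPM in the T29-1 Cre ones. WT 4 was highest in both, by less than in the small membrane subunits, and the log2 fold change of Atp5a1 was 0.01 (SE 0.04), or 0.03 without WT 4.

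In library WT 4 the pathway took a larger share of the counts than in any other library. The 79 genes took 0.948% of all counts there (95% Wilson interval 0.944% to 0.952%, counting error only), against 0.803% to 0.818% in the other 3 WT libraries and 0.791% to 0.858% in T29-1 Cre. As a genotype mean the share was 0.846% ± 0.0685 in WT and 0.815% ± 0.0295 in T29-1 Cre (n = 4 each, SD), a difference smaller than the SD in WT. Without WT 4 the WT share was 0.812% ± 0.00764 (n = 3).

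For each gene, the deviation of WT 4 was taken as its log2 CPM minus the mean of the other 3 WT libraries. The median deviation over the 79 genes was 0.24, against -0.00 over all genes tested. The same measure for the other libraries of their genotype lay between -0.10 (WT 3) and 0.08 (T29-1 Cre 1). WT 4 exceeded the other 3 WT libraries in 75 of 79 genes (background 34% of all genes) and was the highest of all 8 in 71 of 79 (background 25.5%). By complex the median deviation was 0.28 in complex IV, 0.25 in complex V, 0.24 in complex I, 0.21 in complex III and 0.15 in complex II.

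**Figure D3:**
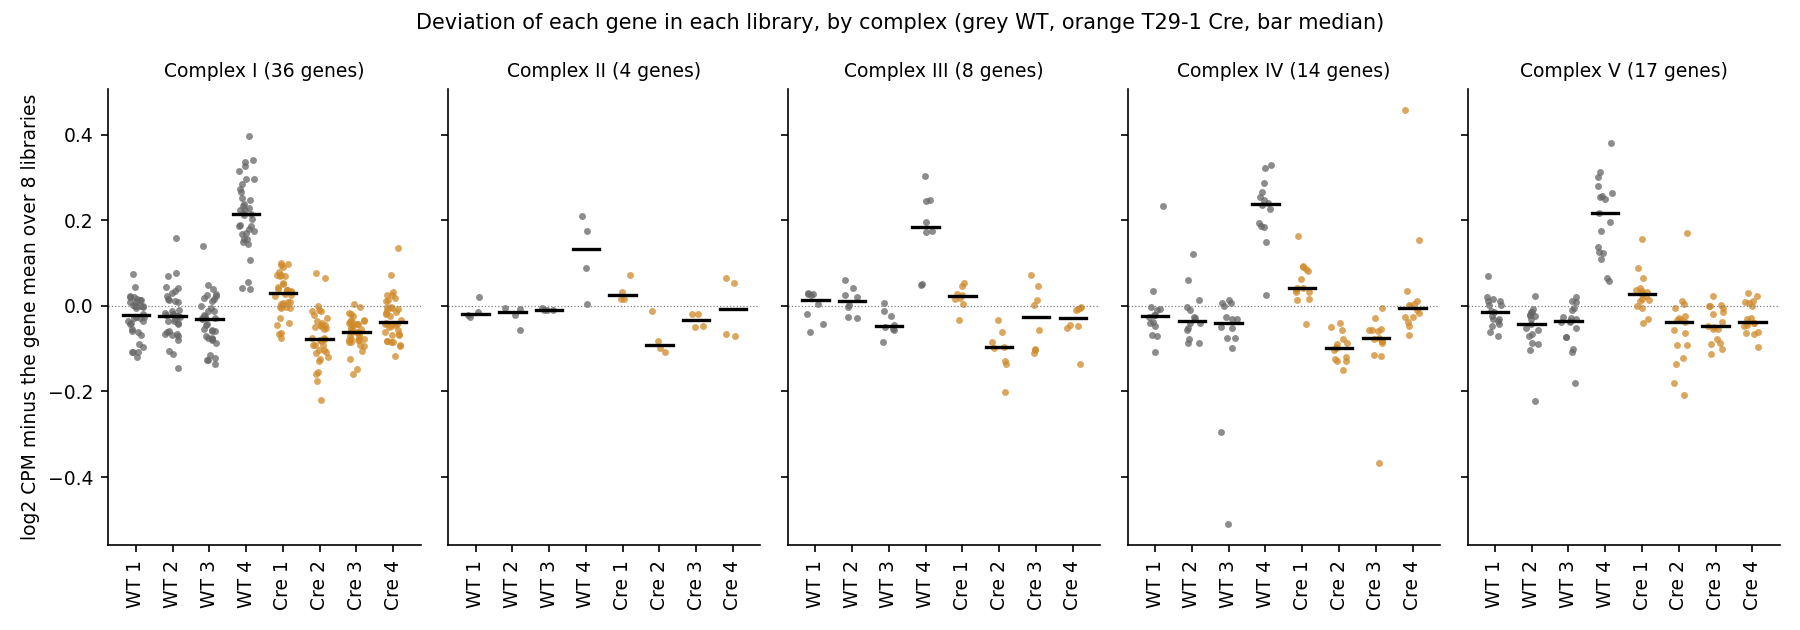
Deviation of each gene's log2 CPM from its mean over the 8 libraries, in each library and complex, with 1 point per gene and a bar at the median (WT in grey, T29-1 Cre in orange). In every complex the median of WT 4 lies above that of the other 7 libraries (0.215 over all 79 genes), and over all 79 genes T29-1 Cre 2 has the lowest median (-0.08).

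The genes differed in how far they followed WT 4. The largest deviation in each complex was that of Ndufs6 in complex I (0.45), Sdhc in complex II (0.22), Uqcrq in complex III (0.34), Ndufa4l2 in complex IV (0.40) and Atp5l in complex V (0.42). Ndufa4l2 had low counts and was not highest in WT 4. Against its mean over the 8 libraries it lay at 0.46 in T29-1 Cre 4 and 0.29 in WT 4. Ndufs6, an accessory subunit of the matrix arm at chr13:73319838-73328542, had 27.9, 28.6, 28.1 and 38.7 CPM in the WT libraries and 29.2, 27.0, 28.1 and 28.3 CPM in the T29-1 Cre ones. Uqcrq, a small subunit of complex III, had 70.9, 71.7, 70.2 and 90.1 CPM in the WT libraries and 74.4, 63.5, 73.1 and 72.4 CPM in the T29-1 Cre ones. WT 4 was the highest library for both genes, and T29-1 Cre 2 was the lowest for both.

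At the other end, the smallest deviations in WT 4 were those of Ndufb2 (0.01), Sdha (0.02), Uqcrb (0.04), Cox6a2 (0.08) and Atp5a1 (0.09). Cox6a2 had low counts and scattered widely, from -0.51 in WT 3 to 0.23 in WT 1 against its mean over the 8 libraries. Ndufb2, an accessory subunit of complex I, had 14.5, 17.4, 16.03 and 16.05 CPM in the WT libraries and 14.9, 16.5, 14.9 and 14.7 CPM in the T29-1 Cre ones. Uqcrb, the ubiquinone-binding protein of complex III, had 34.3, 34.1, 33.4 and 34.8 CPM in the WT libraries and 34.1, 30.6, 35.4 and 32.6 CPM in the T29-1 Cre ones. For these genes WT 4 was within or close to the range of the other libraries.

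Most transcripts of this pathway are short. The median length was 809 bp for the 79 genes and 2855 bp for all 15650 tested genes with an annotated length, and the median GC content was 51.8% and 50.4%. The deviation of WT 4 went with both measures. Across the 79 genes its Spearman correlation was -0.40 with length and 0.46 with GC content, and across all 15650 genes -0.43 and 0.36. These are descriptions across genes of 1 library, and genes are not independent replicates. Among genes under 750 bp the median deviation was 0.27 for 37 genes of the pathway and 0.14 for 763 other genes. Between 750 and 1500 bp it was 0.23 for 25 genes and 0.16 for 2114 others, and from 1500 bp upward 0.18 for 17 genes and -0.03 for 12694 others.

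**Figure D4:**
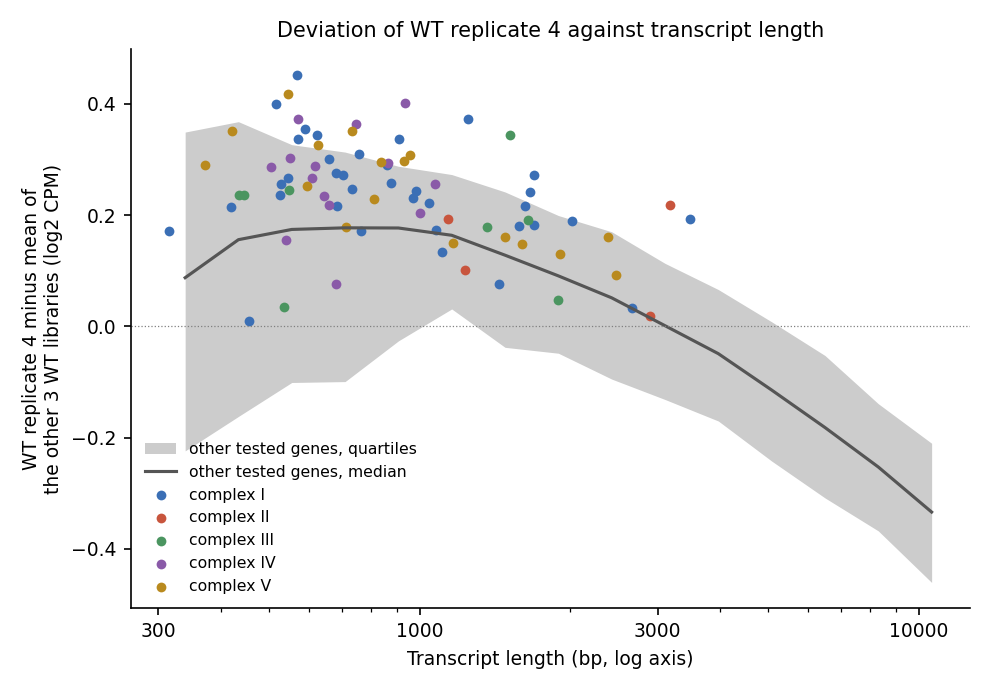
Deviation of WT 4 from the mean of the other 3 WT libraries (log2 CPM) against transcript length (log axis), with the 79 genes as points coloured by complex and the median and quartiles of the other tested genes as a line and a grey band. Most points lie above the line, and the line falls from 0.18 at 709.5 bp to -0.33 at 10611.6 bp.

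When each library was corrected by a smooth curve of deviation on length and GC content, the median deviation of WT 4 was 0.11 for the 79 genes and 0.02 for all genes. In that fit 52 of 79 genes had a lower estimate in T29-1 Cre (background 53.2%), with a median log2 fold change of -0.01 and 0 genes called by edgeR. Marker levels of some other cell types were low in WT 4. The summed levels of 12 pericyte and smooth muscle markers (198 CPM), 8 endothelial markers (144 CPM) and 8 parvalbumin interneuron markers (802 CPM) were the lowest there of all 8 libraries. In the other 3 WT libraries they were 218 to 233, 169 to 182 and 883 to 895 CPM, and in T29-1 Cre 206 to 265, 146 to 203 and 862 to 942 CPM. None of the 3 lists moved as a whole. Of the parvalbumin interneuron markers, Pvalb itself and Tac1 deviated upward in WT 4 (0.29 and 0.34). The other 6, among them Gad1, Gad2 and Kcnc1, which are not particular to these cells, deviated downward. Of the pericyte and smooth muscle markers, Anpep (0.20), Kcnj8 (0.14), Tagln (0.09) and Vtn (0.05) deviated upward and the others downward. Of the endothelial markers, Ly6c1 (0.06) deviated upward and the others downward. All markers of the 3 lists were detected. The part of length, GC content and cell types in the values of WT 4 was not tested beyond these figures.

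Variation between libraries was small once WT 4 was set aside. The median coefficient of variation over the 8 libraries was 7.37% for the 79 genes and 3.65% over the 7 others, and it was smaller without WT 4 in 73 of 79. For the 77 genes of at least 10 CPM it was 7.19% and 3.64%, beside 6.13% and 4.65% for 9891 other genes of at least 10 CPM, of which 7004 also varied less without WT 4. Among the 7 other libraries T29-1 Cre 1 was the highest in 46 of 79 genes and T29-1 Cre 2 the lowest in 37 of 79. Both belong to the same genotype. The same counts over all genes were not made. Over all 15650 genes with a length, the deviations of these libraries went with length (Spearman -0.21 and 0.18). The median deviation of the 79 genes from the rest of the genotype was 0.08 and -0.07. After the correction for length and GC content it was 0.02 and -0.02.

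The tissue isoforms of cytochrome c oxidase were present at very different levels. Cox6a1, the form found in most tissues, had 168, 171, 165 and 218 CPM in the WT libraries and 182, 157, 164 and 174 CPM in the T29-1 Cre ones. Cox6a2, the form of heart and skeletal muscle, had 2.62, 2.42, 1.53 and 2.26 CPM in the WT libraries and 2.49, 2.02, 2.13 and 2.47 CPM in the T29-1 Cre ones. Per length, Cox6a2 made up 0.773% to 1.29% of the sum of both (mean of 1.07% ± 0.172, SD, n = 8), so Cox6a1 was the main form in every library. Cox6a2 is also known from parvalbumin interneurons. Of 8 markers of skeletal and heart muscle 3 passed the filter on low counts, and the summed level of the 8 was 23.03 to 26.7 CPM in the WT libraries and 21.99 to 25.1 CPM in the T29-1 Cre ones. Most of that sum came from Actn2 (mean of 18.1 CPM), with 5.22 CPM for Acta1 and 0.472 CPM for Myh1.

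Ndufa4l2, which is known to be induced by hypoxia and to mark pericytes in the brain, had 1.57, 1.77, 1.37 and 2.09 CPM in the WT libraries and 1.81, 1.55, 1.30 and 2.36 CPM in the T29-1 Cre ones. Its paralog Ndufa4 had 113, 118, 114 and 138 CPM in the WT libraries and 119.7, 111, 118 and 116 CPM in the T29-1 Cre ones. Per length Ndufa4l2 made up 0.715% to 1.31% of the pair (mean of 0.941% ± 0.177, n = 8). The pericyte markers were highest in T29-1 Cre 1 (265 CPM) and lowest in WT 4 (198 CPM), while Ndufa4l2 was highest in T29-1 Cre 4. At these counts (36 to 63 per library) the 95% interval of the log2 fold change of Ndufa4l2 was -0.40 to 0.51.

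Cox7a2 and Cox7a2l were of the same order. Cox7a2 had 66.3, 64.8, 65.5 and 76.3 CPM in the WT libraries and 68.6, 62.8, 62.8 and 67.2 CPM in the T29-1 Cre ones, and per length Cox7a2l made up 45.0% to 47.1% of the pair. The muscle form Cox7a1 had 0.711, 0.928, 0.457 and 0.460 CPM in the WT libraries and 0.529, 0.688, 0.325 and 0.337 CPM in the T29-1 Cre ones. Cox4i2, the hypoxia-responsive form known from lung and pericytes, had 0.673, 0.807, 0.620 and 1.04 CPM in the WT libraries and 0.680, 0.731, 0.867 and 0.975 CPM in the T29-1 Cre ones. Cox6b2, known from testis, had 0.786, 0.766, 1.31 and 1.13 CPM in the WT libraries and 1.06, 0.817, 0.830 and 0.712 CPM in the T29-1 Cre ones. The genotypes overlapped in all 3 of these minor forms.

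The common counterparts of those forms were abundant. Cox6b1 had 94.3, 87.2, 85.9 and 109 CPM in the WT libraries and 97.4, 85.9, 87.0 and 92.0 CPM in the T29-1 Cre ones. Cox8a had 183, 175.5, 179.8 and 221 CPM in the WT libraries and 192, 174, 179.7 and 191 CPM in the T29-1 Cre ones, while Cox7b had 62.3, 60.9, 63.9 and 71.8 CPM in the WT libraries and 67.2, 59.99, 58.5 and 62.5 CPM in the T29-1 Cre ones. WT 4 was the highest library for all 3. Cox7b2 had at most 0.262 CPM and Cox8b, the muscle form of subunit 8, at most 0.144 CPM. Cox8c, known from testis, had 0 counts in all libraries, and a count of 0 allows a level of up to 0.0978 to 0.129 CPM (3 counts in a library), so that Cox8b and most values of Cox7b2 lay at or near that limit.

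**Figure D5:**
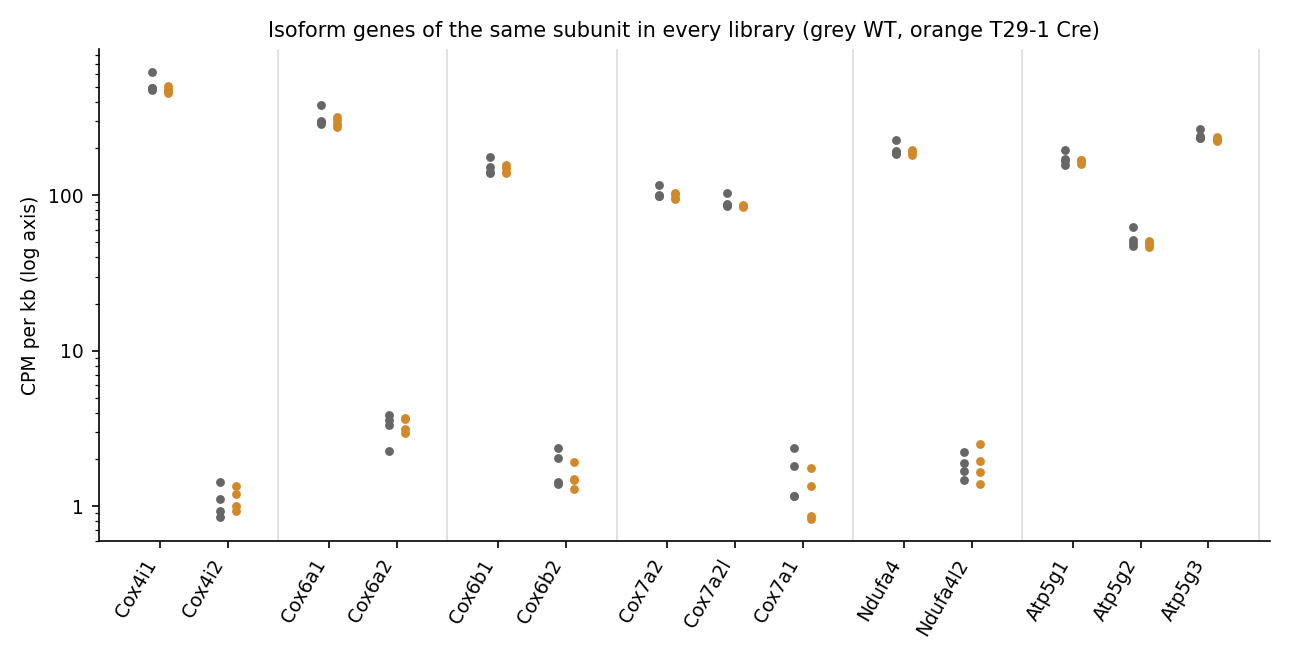
Level in CPM per kb of transcript (log axis) of genes that encode forms of the same subunit, in each of the 8 libraries (WT in grey, T29-1 Cre in orange), with thin lines between subunits. Cox4i2, Cox6a2, Cox6b2, Cox7a1 and Ndufa4l2 lie far below the common form of the same subunit in all libraries, whereas Cox7a2l and the Atp5g genes are closer to each other.

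Complex V has 3 genes, Atp5g1, Atp5g2 and Atp5g3, whose mature products form the same c subunit of the rotor ring. Atp5g3 had 167, 166, 171 and 190.4 CPM in the WT libraries and 170.4, 158, 162 and 165 CPM in the T29-1 Cre ones. Atp5g1 had 101, 99.5, 93.3 and 117 CPM in the WT libraries and 100.1, 98.8, 94.5 and 101 CPM in the T29-1 Cre ones. Atp5g2 had 37.5, 34.4, 36.2 and 46.0 CPM in the WT libraries and 37.0, 34.0, 36.6 and 35.4 CPM in the T29-1 Cre ones. Per length, Atp5g3 gave 52.0% ± 1.29 of the c subunit transcripts in WT and 51.7% ± 0.541 in T29-1 Cre, Atp5g1 gave 36.8% ± 1.09 and 37.3% ± 0.858, and Atp5g2 gave 11.2% ± 0.591 and 11.01% ± 0.351 (SD, n = 4 each). With the longest principal transcript of each gene as its length, a choice added after the data were seen, the share of Atp5g1 was 6.91% in WT and 7.05% in T29-1 Cre. With either length the genotypes differed by less than the SD within T29-1 Cre, while the order of Atp5g1 and Atp5g2 depended on the length.

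Scaling cancels in a ratio of 2 genes within a library, so isoform ratios were compared between genotypes for the 5 pairs in which both genes had at least 1 CPM. The difference in mean log2 ratio (T29-1 Cre minus WT) was 0.15 for Cox6a2 to Cox6a1 (exact two-sided permutation p = 0.400), -0.03 for Cox7a2l to Cox7a2 (exact p = 0.400) and 0.08 for Ndufa4l2 to Ndufa4 (exact p = 0.714). It was 0.03 for Atp5g1 to Atp5g3 (exact p = 0.629) and -0.02 for Atp5g2 to Atp5g3 (exact p = 0.800). The smallest p that 4 against 4 libraries allow is 0.0286, and the Benjamini-Hochberg adjusted p over the 5 pairs was 0.800 for each (exact permutation test). No pair passed the test. Without WT 4 the differences were 0.08, -0.02 and 0.12 for the first 3 pairs and 0.05 and 0.02 for the pairs of Atp5g genes. The pairs with a rare form were the least precise, with an SD of the log2 ratio of 0.35 in WT for Cox6a2 to Cox6a1 and 0.36 in T29-1 Cre for Ndufa4l2 to Ndufa4, against 0.02 in WT for Cox7a2l to Cox7a2.

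The genes that build, feed or regulate the complexes were read from lists of the same pathway. Of 49 assembly factors that were tested, edgeR called 0, 31 had a lower estimate in T29-1 Cre and the median log2 fold change was -0.04. Without WT 4, 21 of 49 were lower and the median was 0.01. In that fit 2 factors had an unadjusted p under 0.05 by edgeR (background 2.87%), Uqcc2 lower and Cmc1 higher. Cmc1, in the list for complex IV, had a log2 fold change of 0.27 there (SE 0.10, unadjusted p = 0.0196 by edgeR) and 0.18 with all libraries. With all 8 libraries 2 factors of the list had an unadjusted p under 0.05 (background 2.43%), both lower (background 1.16%). Uqcc2, an assembly factor of complex III, had 36.1 ± 3.55 CPM in the WT libraries and 31.4 ± 1.84 CPM in the T29-1 Cre ones (log2 fold change -0.20, SE 0.07, unadjusted p = 0.0150 and adjusted p = 0.998 by edgeR), and -0.13 without WT 4. Ecsit, which takes part in complex I assembly, had 34.9 ± 1.48 and 31.9 ± 1.14 CPM (log2 fold change -0.13, SE 0.05, unadjusted p = 0.0328 and adjusted p = 0.998 by edgeR), and -0.10 without WT 4. Its genotypes did not overlap, nor did those of Foxred1, another complex I assembly factor (30.4 ± 0.998 and 28.1 ± 0.743 CPM, log2 fold change -0.11, or -0.09 without WT 4), which makes 2 of 49 against a background of 1.81%. The assembly factors deviated less in WT 4 than the subunits, with a median of 0.10, and WT 4 was the highest library for 23 of 49.

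Of 15 genes for the mobile carriers, electron transfer flavoprotein and quinone synthesis, 12 were lower (median log2 fold change -0.02), 0 were called by edgeR and 0 had an unadjusted p under 0.05. The gene with the smallest p was Etfb, a subunit of the electron transfer flavoprotein, with 30.1 ± 3.39 CPM in the WT libraries and 26.8 ± 1.64 CPM in the T29-1 Cre ones (log2 fold change -0.16, SE 0.08, or -0.09 without WT 4). Etfdh, which passes its electrons to ubiquinone, followed with a log2 fold change of -0.10 (SE 0.06, or -0.11 without WT 4). Of 13 enzymes of the citric acid cycle, 10 were lower (median -0.02) and 0 were called, with Fh1 (fumarase, -0.10, SE 0.06, or -0.04 without WT 4) and Dlst (a component of the oxoglutarate dehydrogenase complex, -0.06, SE 0.04) having the smallest p. Dlst did not overlap between genotypes, at 121.9 ± 1.90 CPM in the WT libraries and 117 ± 1.45 CPM in the T29-1 Cre ones, as 1 of 13 enzymes against a background of 1.81%, and its log2 fold change without WT 4 was again -0.06. Without WT 4, 8 of 15 carrier genes and 6 of 13 citric acid cycle enzymes were lower.

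Of 12 regulators of mitochondrial biogenesis, 7 were lower (median log2 fold change -0.02), and 0 were called or had an unadjusted p under 0.05 by edgeR. Pprc1 (-0.09, SE 0.06, or -0.06 without WT 4) and Esrra (-0.10, SE 0.08, or -0.02 without WT 4), a coactivator and a nuclear receptor of the pathway, had the smallest p. As a list the regulators had a median deviation of -0.09 in WT 4, where that of the subunits was above 0. Over all genes that deviation went with transcript length. The lengths of the regulators were not compared with those of the subunits, so the part of length in this contrast was not tested. Single regulators lay on either side, from -0.41 (Ppargc1a) to 0.29 (Esrra), and Pprc1 had 0.11. Of the factors whose motifs were searched, the 3 in this list had deviations in WT 4 of -0.10 (Nrf1), -0.20 (Gabpa) and -0.09 (Yy1), and log2 fold changes between genotypes of -0.01, -0.02 and 0.05 (-0.03, -0.07 and 0.02 without WT 4). The coactivator Ppargc1a had 49.8 ± 6.64 CPM in the WT libraries and 53.5 ± 0.289 CPM in the T29-1 Cre ones (log2 fold change 0.10, or 0.01 without WT 4).

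As a list, the mitochondrially encoded genes of the same complexes did not share the deviation of WT 4. Their median deviation there was -0.03 over the 12 that were tested, and their summed level was 25223 CPM in WT 4, 25999 to 27211 CPM in the other 3 WT libraries and 24756 to 27696 CPM in the T29-1 Cre ones. Between genotypes 9 of 12 were lower (median log2 fold change -0.04) and 0 were called by edgeR. The smallest p belonged to mt-Nd3 and mt-Co2, each with a log2 fold change of -0.14 (SE 0.10 and 0.13, or -0.06 and -0.04 without WT 4), and these 2 genes deviated upward in WT 4 (0.32 and 0.38). So did mt-Co3 (0.68) and mt-Atp6 (0.30). All of these had low means (13.4, 6.32, 6.85 and 7.78 CPM in the order named), against 10765 CPM for mt-Co1. The search for shared sequence described below covered the subunit genes only, and the rule for multi-mapped reads is not given. Low counts of mitochondrially encoded genes, and their deviations, may therefore not measure transcript levels. The other tested genes of the list deviated downward, from -0.01 (mt-Nd1) to -0.60 (mt-Nd4l, mean of 2.23 CPM).

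Some counts are uncertain because other genes share the sequence or the place. At 97% identity, 1 or more other genes cover most of the representative transcript of Atp5o (92.0%), Atp5g2 (88.2%), Ndufs3 (84.1%), Atp5h (77.6%), Atp5l (72.2%), Atp5g1 (69.0%), Atp5f1 (64.6%), Uqcrb (62.8%), Ndufs5 (60.8%), Cox7c (58.3%) and Ndufb2 (50.8%). The letters of Atp5sl are those of a gene also annotated as Dmac2. Exons of genes on the opposite strand overlap Ndufa13 (Tssk6, 30.0% of its exonic bases), Uqcrc2 (Pdzd9, 19.8%) and Atp5j (Gabpa, 12.7%), among others. As the strand setting of the counting is not given in the sources used here, reads of such partners cannot be told apart from those of the subunit.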

How the data were processed

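Hippocampal poly(A) RNA of 4 WT and 4 T29-1 Cre samples was sequenced with paired-end reads from a directional kit, per the labels' protocols. The authors deposited a table of raw counts by gene name. Alignment and counting were on GRCm38 and the tools named are STAR (2.6.1d), featureCounts and edgeR (3.11), per the submitters' processing notes. Not given in the sources used here are the release of the annotation, how the counting treated strand, its rule for multi-mapped reads and the featureCounts version. The authors' table of their own comparison was not used. For 216 gene names the table has more than 1 row, each treated as a gene of its own.

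The counts were analysed in R 4.3.3 with edgeR 4.0.16: filterByExpr (minimum count 10, total 15), TMM scaling, and the quasi-likelihood test of genotype over 15996 genes with Benjamini-Hochberg adjustment at 0.05. CPM uses TMM-scaled totals, and log2 CPM a prior count of 2. SEs are the log2 fold change divided by the root of F. DESeq2 1.42.0, limma-voom (limma 3.58.1), other scalings and filters, offsets for length and GC content (mgcv 1.9.3), a replicate block and each library left out were alternatives. The scripts were tested on simulated data. Isoform ratios add 0.5 to each count and use all 70 assignments. Libraries of 1 genotype differed by more than sampling noise (chi-square over its degrees of freedom, 3.34 to 19.4), and none was taken as a repeat.

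Lengths and GC contents come from GENCODE M21 on GRCm38 and were found for 97.8% of tested genes and all 79 subunit genes. The representative transcript is the shortest coding principal transcript that is matched to RefSeq, a rule set after the lengths had been seen. The genes and lists were chosen with earlier results of these data known. Genes named with values are, per complex, the 2 with the smallest p, the highest per length, the largest and smallest deviation in WT 4, all isoforms, and any gene called or not overlapping, and from each other list of the pathway the 2 with the smallest p. The other genes named were chosen after their values were seen. A division of complex I by role is not reported here.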

Additional observations from a re-analysis of the deposited data

Results flagged for a closer look

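Single libraries were compared with the rest of their genotype for 34 named genes and for the medians of the complexes and other measures, 90 groups of 4 libraries in all. A library was singled out where its gap to the nearest of the others was large against the whole range of the 4 (Dixon's 95% value). Chance does this in about 1 in 20 independent groups. It was met in 17 groups, 14 of them by WT 4. This count is a description only, since some of the genes were named for their large deviation in WT 4 and all groups share the same libraries.

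For the genes, WT 4 was above the other 3 WT libraries on the log2 CPM scale at 5.275 for Ndufs6 (others 4.809 to 4.842), 5.608 for Ndufa6 (5.246 to 5.261), 6.336 for Sdhc (6.112 to 6.123) and 6.679 for Sdhb (6.478 to 6.499). The same held at 6.495 for Uqcrq (6.135 to 6.166), 8.862 for Cox4i1 (8.458 to 8.522), 6.797 for Cox7a2l (6.531 to 6.559), 7.766 for Cox6a1 (7.369 to 7.415) and 6.255 for Cox7a2 (6.02 to 6.053). Among the T29-1 Cre libraries, T29-1 Cre 2 was apart for 2 genes. It was higher for Ndufb2, at 4.049 (others 3.889 to 3.909), and lower for Uqcrq, at 5.99 (others 6.18 to 6.219).

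The median deviation from the mean of the 8 libraries was 0.215 in WT 4 over the 79 genes (the other WT libraries -0.031 to -0.0187). By complex it was 0.2157 in complex I, 0.1318 in complex II, 0.2385 in complex IV and 0.2161 in complex V. In T29-1 Cre 1 the median of complex V was 0.02771 (the other T29-1 Cre libraries -0.04766 to -0.03736).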

How the results depend on the processing

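No subunit gene was called under any alternative run. Their median of -0.06 kept a negative sign under the other tests, scalings and filters. The number of all genes called was 2 with no filter on low counts (1 otherwise, the replicate block aside), and the cause was not tested.

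For the 79 genes as a whole the direction depended on WT 4, while the medians of complexes II (-0.005) and III (-0.02) stayed below 0 without it. With each library left out in turn, the count of subunit genes with a lower estimate ran from 38 (without WT 4) to 77, and the median over all 79 from -0.09 to 0.00 (complex I -0.09 to 0.00, II -0.07 to -0.00, III -0.10 to -0.02, IV -0.09 to 0.00, V -0.08 to 0.01). In the same repeats the log2 fold change ran from -0.109 to 0.00119 for Ndufb9, -0.13 to 0.000176 for Uqcrq, -0.0436 to 0.00794 for Atp5b, -0.132 to 0.0116 for Cox6a1, -0.0957 to 0.024 for Cox6b1, -0.0806 to 0.0372 for Cox8a, -0.0897 to 0.0155 for Ndufa4 and -0.102 to 0.0106 for Atp5g1, the upper value being that without WT 4 in each. It ran from -0.122 to 0.181 for Ndufa4l2, -0.00874 to 0.0324 for Atp5a1, -0.0393 to 0.228 for Cox4i2 and -0.0932 to 0.155 for Cox6a2, with negative values without T29-1 Cre 4 (Ndufa4l2, Atp5a1, Cox4i2), without WT 2 (Atp5a1) and without WT 3 (all 4). Isoform ratios ran from -0.072 to 0.219 for Ndufa4l2 to Ndufa4 (lowest without T29-1 Cre 4), -0.00966 to 0.0465 for Atp5g1 to Atp5g3 (lowest without WT 3) and -0.0493 to 0.0249 for Atp5g2 to Atp5g3 (highest without WT 4). Without WT 4, a setting added for the other lists after the data were seen, the median was 0.00607 for the assembly factors and 0.00111 for the citric acid cycle enzymes. The lowest exact permutation p of a ratio over these, adjusted, was 0.657.

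With length and GC offsets the log2 fold change turned positive for 20 of 79 genes, and among those named by the rule for Uqcrb (0.00251), Cox6b1 (0.00550), Cox8a (0.0302) and Atp5g1 (0.0145). The median deviation of WT 4 was then 0.112 over all 79 genes and 0.109, 0.0550, 0.0746, 0.160 and 0.115 in complexes I to V. On library totals without scaling factors it was 0.256 over all 79, 0.262 in complex I, 0.166 in II, 0.296 in IV and 0.273 in V. Against the T29-1 Cre mean it was 0.154 in complex II and 0.266 in IV. With the longest transcripts the mean c subunit shares were 6.98% for Atp5g1, 16.6% for Atp5g2 and 76.4% for Atp5g3, since a longer length lowers a level per kb.

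The replicate numbers were not taken as pairs. The correlations of same-numbered libraries were -0.096, 0.152, -0.032 and -0.007. With the replicate block 2 of all genes and 0 subunit genes were called, and 72 of 79 were lower (median -0.06). Changes of a few percent are within the reach of the spread between 4 libraries and were not detectable here.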
